A study of Mus musculus with 12 samples.

Results

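The question here is how an antisense oligonucleotide against a 5' splice site (5'ss AMO) altered the response of mouse fibro/adipogenic progenitors (FAPs) to the growth factor PDGF-AA. It was answered with 8 of the 12 arrays of the series, 2 in each of 4 groups chosen by the AMO and PDGF-AA named in the sample titles, and with 21789 transcript clusters, the units of a gene array, that carry exactly 1 gene symbol, of 35556 in the table. The interaction is the PDGF-AA change with 5'ss AMO minus the PDGF-AA change with control AMO, on the log2 scale. A value above 0 means that the change was more positive with 5'ss AMO.

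The 4 groups were 5'ss AMO with PDGF-AA at a dose the labels give as 50 uM, 5'ss AMO with 0 uM, control AMO with 50 uM and control AMO with 0 uM. All cells were wild-type FAPs taken from uninjured hindlimbs of male C57Bl/6 mice aged 8 to 12 weeks, and each replicate pooled cells of 2 mice. All had grown for 2.5 days in culture and were transfected with an AMO at 10 uM 2 times, for 48 hours each, with PDGF-AA present or absent in the later period. The remaining 4 arrays, with an AMO named for a polyadenylation site, are in none of the groups compared. They entered the fit to help estimate the spread and the difference between replicate numbers. That difference enters the values compared when an array is left out. All groups, the controls included, carry a transfected AMO.

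PDGF-AA is a dimeric ligand of the receptor tyrosine kinase PDGFRα, which signals through the MAPK and PI3K pathways. FAPs are stromal progenitors of muscle, recognised by PDGFRα, that can become matrix-producing fibroblasts or adipocytes. A 5' splice site marks the start of an intron, and an oligonucleotide that covers it can keep the splicing machinery from using that site. The series' title concerns Pdgfra transcripts that end at a polyadenylation site within an intron.

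Pdgfra, the receptor itself, was at log2 levels of 12.89 and 12.84 with 5'ss AMO and PDGF-AA and 12.90 and 12.92 with 5'ss AMO alone, against 12.75 and 12.78 with control AMO and PDGF-AA and 12.75 and 12.75 with control AMO alone. All 4 arrays with 5'ss AMO lay above all 4 with control AMO, but the difference between AMOs did not pass at either dose, at 0.10 with PDGF-AA (adjusted p = 0.54 in limma) and 0.16 without it (adjusted p = 0.996). The interaction was -0.07 (SE 0.0986, adjusted p = 0.9). The value of this cluster does not separate full-length from truncated transcripts, so it does not check what the AMO did to splicing.

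Of the other PDGF genes, the ligand Pdgfd had the largest interaction, at -0.38 (SE 0.135, unadjusted p = 0.0209, adjusted p = 0.552). Its log2 levels were 8.28 and 8.46 with 5'ss AMO and PDGF-AA, 8.38 and 8.42 with 5'ss AMO alone, 8.49 and 8.41 with control AMO and PDGF-AA, and 8.18 and 8.03 with control AMO alone. The arrays that stand apart for Pdgfd are the 2 with control AMO alone, which were low, so the difference between AMOs lay mostly without PDGF-AA. The receptor Pdgfrb was at -0.22, the ligands Pdgfb at -0.12, Pdgfc at 0.12 and Pdgfa at 0.05, and the PDGF receptor-like gene Pdgfrl at 0.06 (adjusted p 0.699 or more). Pdgfa and Pdgfrl changed sign when single arrays were left out: Pdgfa was at -0.053 with replicate 1 of control AMO alone left out, and Pdgfrl at -0.267 with replicate 2 of 5'ss AMO plus PDGF-AA left out. Pdgfb and Pdgfc kept their sign in these fits but ran from -0.212 to -0.0178 and from 0.0352 to 0.196, and Pdgfra ran from -0.109 to -0.023. The median of the 7 PDGF genes was -0.0663.

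Across all genes, 0 of 21789 clusters (0%) passed for the interaction at an adjusted p under 0.05 in limma with the replicate number as a block. The smallest adjusted p was 0.362, for the olfactory receptor genes Olfr192 and Olfr1101, at low mean log2 levels of 2.52 and 3.86. An unadjusted p under 0.05 was seen for 1731 clusters (7.94%), with 683 above 0 (3.13%) and 1048 below 0 (4.81%). Without the block the count was also 0, the smallest adjusted p was 1 and 643 clusters had an unadjusted p under 0.05. The PDGF-AA change itself passed for 0 clusters with 5'ss AMO, where 987 (4.53%) had an unadjusted p under 0.05, and for 0 with control AMO, where 2777 (12.7%) did. The median interaction over all clusters was -0.0166 and the median standard error 0.14. Across clusters, the interaction in replicate 1 and that in replicate 2 had a Pearson correlation of 0.00508, against 0.192 for the difference between AMOs with PDGF-AA and -0.0204 for that without it, over clusters that share the 8 arrays. No gene therefore has a called interaction, and the gene values are given as measured, with their errors.

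With replicate 2 of 5'ss AMO plus PDGF-AA left out, 9 clusters passed for the interaction and 18 for the PDGF-AA change with 5'ss AMO. That fit leaves 1 array in the group, which is assumed to vary like the other groups, and the other 7 fits that left out an array gave 0 for the interaction. The 9 clusters stand for Plin1, Fabp5 (2 clusters), Lipe, Adipoq, Cd36, Lgals12, Gnai1 and Hsd3b6, named after their values were seen. The remaining array is the one on which the adipocyte list was highest.

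The differences between the AMOs lay more often with PDGF-AA than without it. For this, the interaction was split into the difference between AMOs with PDGF-AA minus that without it, and a difference was said to lie mostly at a dose when it was at least 2 times as large there. Of the 683 clusters above 0 at an unadjusted p under 0.05, 440 (64.4%) lay mostly with PDGF-AA, 62 (9.08%) mostly without it and 181 (26.5%) in both. Of the 1048 below 0, 514 (49%) lay mostly with PDGF-AA, 111 (10.6%) mostly without it and 423 (40.4%) in both. Over all clusters these shares were 40.7% with, 20.2% without and 39.1% in both. The clusters above 0 had a median difference between AMOs of 0.298 with PDGF-AA and -0.0837 without it, and those below 0 of -0.268 with PDGF-AA and 0.137 without it. The interaction that chose these clusters is computed from these same differences. Opposite signs at the doses therefore follow in part from the choice, and the shares and medians of the chosen clusters are a description only.

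With PDGF-AA, 22 clusters (0.101%) passed between 5'ss AMO and control AMO in limma, of which 15 rose and 7 fell with 5'ss AMO, and 3393 clusters (15.6%) had an unadjusted p under 0.05. Of those that fell, Olfr192, Olfr1101, Mrgpra6 and Ptgdr2 averaged below a log2 level of 6.1, the 40th percentile of all clusters tested. Arxes2, Fbxo48 and Atp13a3 did so among those that rose. With each array centred on its median, 62 passed, of which 54 rose. Without PDGF-AA only the kininogen gene Kng2 passed (1 cluster, 0.00459%), and 1065 (4.89%) had an unadjusted p under 0.05. The 22 calls depended on single arrays and on the block. The count was 0 without the block, 5 without either array of control AMO alone, 21 with replicate 2 of 5'ss AMO plus PDGF-AA left out, of which only 4 are among the 22, and 0 without any other single array of the 8. Averaged over doses, 3 clusters (0.0138%) passed, Kng2, Tgfbi and Arxes2, and 0 without the block, while 2700 (12.4%) had an unadjusted p under 0.05. They are named after their values were seen.

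Kng2 shows a difference between AMOs that was there at both doses. Its log2 levels were 8.37 and 8.61 with 5'ss AMO and PDGF-AA and 8.22 and 8.66 with 5'ss AMO alone, against 9.39 and 9.85 with control AMO and PDGF-AA and 9.73 and 9.93 with control AMO alone. All 5'ss AMO arrays lay below all control AMO arrays. The difference was -1.13 with PDGF-AA (SE 0.0968, adjusted p = 0.0166) and -1.39 without it (SE 0.0968, adjusted p = 0.00266), and the interaction was 0.26 (adjusted p = 0.67). The call without PDGF-AA was lost without control AMO alone replicate 1 and without either array of 5'ss AMO alone. Kng2 and Kng1 are near-identical paralogs, so the values of either are uncertain.

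Tgfbi, an extracellular matrix protein induced by TGF-beta, was at 9.54 and 9.52 with 5'ss AMO and PDGF-AA and 9.49 and 9.66 with 5'ss AMO alone, against 8.72 and 8.77 with control AMO and PDGF-AA and 9.16 and 9.33 with control AMO alone. Its 5'ss AMO arrays were above the control AMO arrays at both doses, with the wider gap with PDGF-AA. The difference was 0.79 with PDGF-AA (adjusted p = 0.0196) and 0.33 without it (adjusted p = 0.912), and the interaction was 0.46 (SE 0.11, unadjusted p = 0.00217, adjusted p = 0.467).

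Of the 15 named genes with an interaction above 0, the secreted proteins Comp, Agt, Kng1 and Gas6 are given first. Comp, a pentameric matrix protein of cartilage and tendon, had log2 levels of 9.82 and 10.47 with 5'ss AMO and PDGF-AA and 9.95 and 10.18 with 5'ss AMO alone, against 8.43 and 9.11 with control AMO and PDGF-AA and 9.93 and 10.30 with control AMO alone. The 2 arrays with control AMO and PDGF-AA stood below the other 6. Its PDGF-AA change was 0.08 with 5'ss AMO and -1.34 with control AMO, which gave an interaction of 1.42 (SE 0.215, unadjusted p = 8.85e-05, adjusted p = 0.464). The difference between AMOs passed with PDGF-AA, at 1.37 (adjusted p = 0.0255), and was -0.05 without it (adjusted p = 0.996). With an intensity trend in the moderation, Comp alone passed for the interaction (adjusted p = 0.0353, over a range of 0.0353 to 1 in the other settings).

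Agt, which encodes angiotensinogen, the precursor of the angiotensins, was at 7.89 and 8.19 with 5'ss AMO and PDGF-AA and 7.66 and 8.10 with 5'ss AMO alone, against 7.22 and 7.62 with control AMO and PDGF-AA and 7.88 and 8.21 with control AMO alone. Within each replicate number, the array with control AMO and PDGF-AA was the lowest of the 4. The interaction was 0.78 (SE 0.123, adjusted p = 0.464), and the difference between AMOs was 0.62 with PDGF-AA, which passed (adjusted p = 0.0474), and -0.16 without it.

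Kng1, which encodes the precursor of bradykinin, was at 6.80 and 7.11 with 5'ss AMO and PDGF-AA and 6.79 and 7.19 with 5'ss AMO alone, against 6.36 and 6.64 with control AMO and PDGF-AA and 7.15 and 7.40 with control AMO alone. Its PDGF-AA change was -0.03 with 5'ss AMO and -0.78 with control AMO (adjusted p = 0.0704, the smallest for PDGF-AA with control AMO), and the interaction was 0.74 (SE 0.111, adjusted p = 0.464). The difference between AMOs was split between the doses, at 0.46 with PDGF-AA and -0.29 without it.

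Gas6, a ligand of the receptor kinases Tyro3, Axl and Mertk, was at 12.81 and 12.88 with 5'ss AMO and PDGF-AA and 12.79 and 12.96 with 5'ss AMO alone, against 12.20 and 12.40 with control AMO and PDGF-AA and 12.78 and 12.91 with control AMO alone. Again only the arrays with control AMO and PDGF-AA stood apart, below the others. The interaction was 0.52 (SE 0.112, adjusted p = 0.467), with a difference between AMOs of 0.55 with PDGF-AA (adjusted p = 0.0506) and 0.03 without it.

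**Figure D1:**
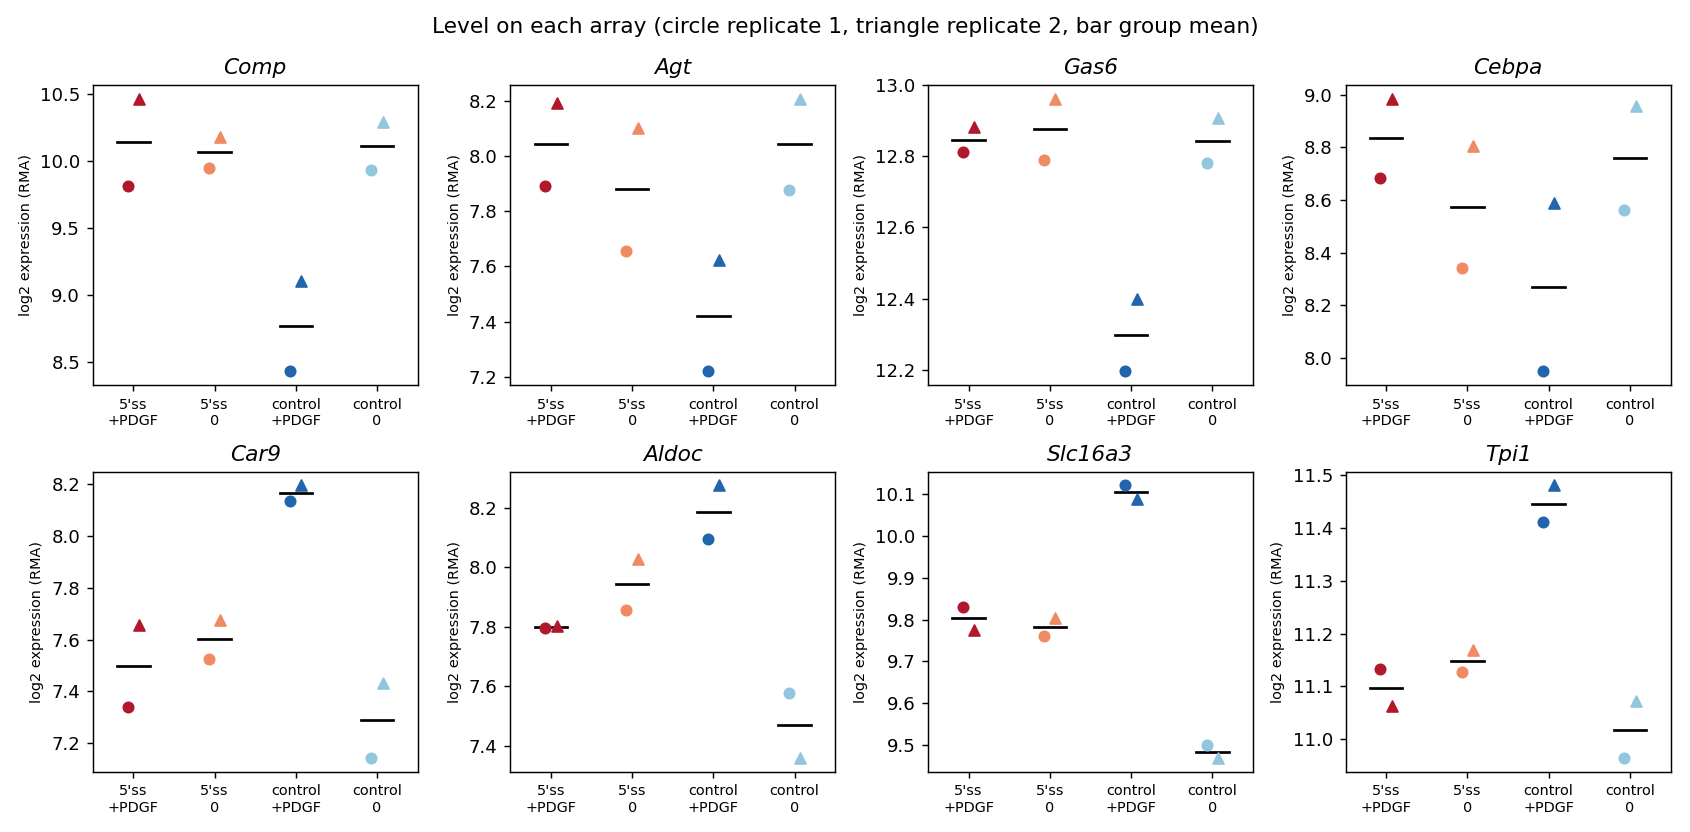
Log2 expression (vertical axis, RMA, each panel on its own range) of 8 genes on each of the 8 arrays, with 5'ss AMO left of control AMO and PDGF-AA left of its absence, and a bar at each group's mean of 2 arrays. The mean with control AMO and PDGF-AA is the lowest of the 4 in the upper panels (arrays at 8.43 and 9.11 for Comp) and the highest in the lower ones (8.14 and 8.19 for Car9), and the 5'ss AMO means with and without PDGF-AA lie nearer each other than the control AMO means do.

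Among regulators and membrane proteins, Cebpa, a transcription factor of fat cell differentiation, was at 8.68 and 8.99 with 5'ss AMO and PDGF-AA and 8.34 and 8.80 with 5'ss AMO alone, against 7.95 and 8.59 with control AMO and PDGF-AA and 8.56 and 8.96 with control AMO alone. Replicate 1 was the lower of the replicates in every group, and within each number the array with control AMO and PDGF-AA was the lowest. The interaction of Cebpa was 0.75 (SE 0.138, adjusted p = 0.467).

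The tetraspanin Tspan18 was at 7.77 and 8.02 with 5'ss AMO and PDGF-AA and 7.81 and 7.66 with 5'ss AMO alone, against 6.84 and 7.12 with control AMO and PDGF-AA and 7.78 and 7.66 with control AMO alone. The 2 arrays with control AMO and PDGF-AA were low and the other 6 lay together. Its interaction was 0.90 (SE 0.166, adjusted p = 0.467), and the difference between AMOs passed with PDGF-AA, at 0.92 (adjusted p = 0.0468), and was 0.02 without it.

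Samd5, a protein with a sterile alpha motif, was at 6.91 and 6.90 with 5'ss AMO and PDGF-AA and 6.94 and 6.85 with 5'ss AMO alone, against 6.18 and 6.05 with control AMO and PDGF-AA and 6.83 and 6.68 with control AMO alone. Its 5'ss AMO arrays were above the control AMO arrays at both doses, closely so without PDGF-AA. The difference passed with PDGF-AA, at 0.79 (adjusted p = 0.0205), and was 0.14 without it.

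Hacd2, Fchsd2 and Cwf19l2 of the 15 also passed between AMOs with PDGF-AA, each higher with 5'ss AMO. Hacd2 is an enzyme of very long chain fatty acid elongation and was at 0.65 (adjusted p = 0.0255). Fchsd2, which acts in membrane trafficking, was at 0.55, and Cwf19l2, a homologue of a yeast splicing factor, was at 0.61 (adjusted p = 0.0468 for both). The remaining members, with interactions of 0.47 to 0.67, were Ddx51 (0.47), a helicase of ribosome biogenesis, Prkag2 (0.52), a regulatory subunit of AMP-activated kinase, Haus2 (0.52), a subunit of the augmin complex of the spindle, the ecto-nucleotidase Entpd2 (0.58) and the zinc finger gene Zfp738 (0.67). In all, 14 of the 15 lay mostly with PDGF-AA and 1, Kng1, in both. With PDGF-AA the 5'ss AMO arrays were all above the control AMO arrays for 15 of 15, where 12.5% of all clusters were, and for 7 of the 15 that difference passed. Without PDGF-AA the groups did not overlap for 3 of 15, with Samd5 above (12.6% of all clusters) and Haus2 and Entpd2 below (11.1%). Since the interaction that chose these genes uses the same arrays, these counts are a description only. The median difference between AMOs was 0.567 with PDGF-AA and -0.0474 without it.

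**Figure D2:**
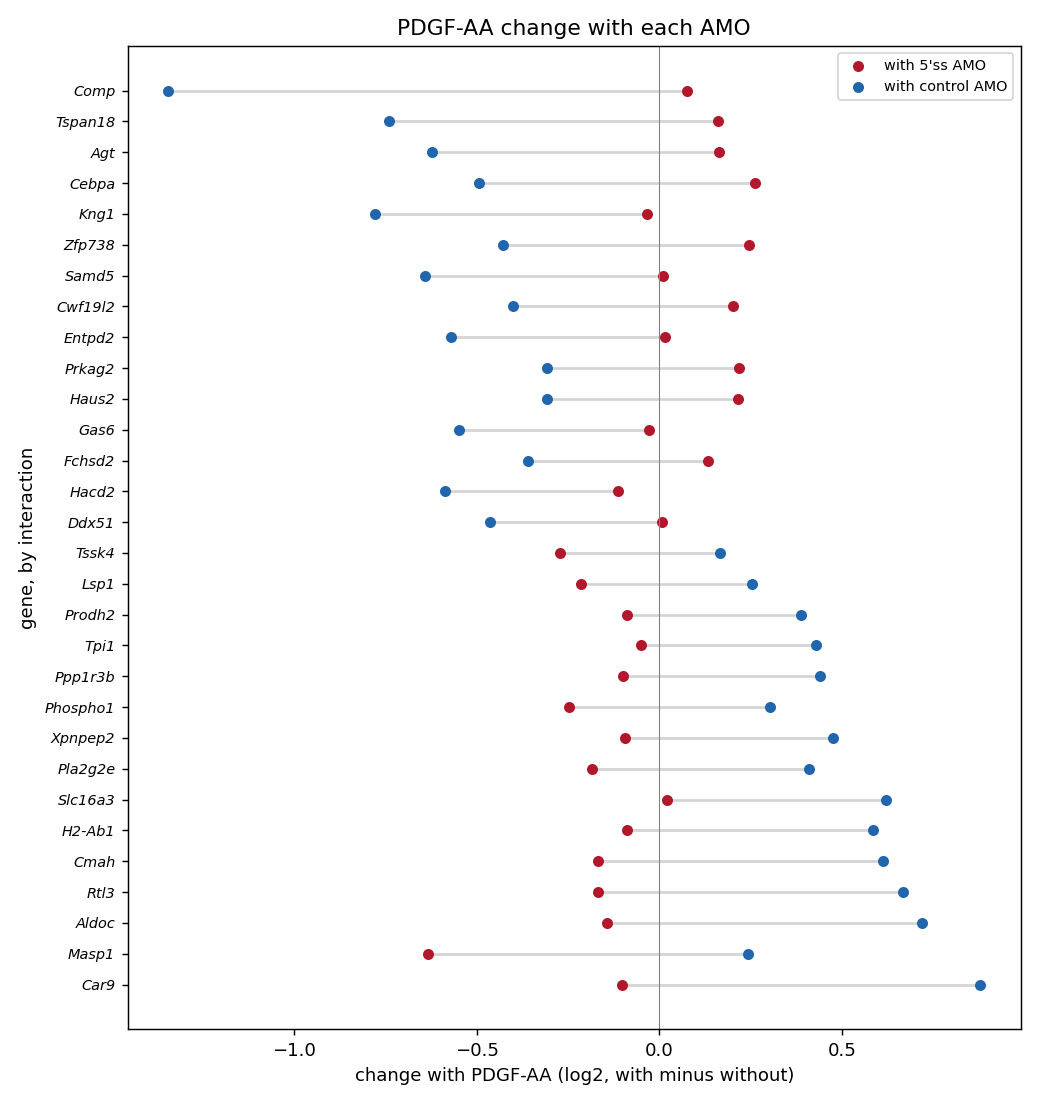
PDGF-AA change (horizontal axis, log2, with minus without PDGF-AA, from group means of 2 arrays) of the 30 named genes, with 5'ss AMO in red and with control AMO in blue, joined by a line whose length is the interaction. Red points sit between -0.63 (Masp1) and 0.26 (Cebpa), and blue points run between -1.34 (Comp) and 0.88 (Car9).

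Of the 15 named genes with an interaction below 0, Car9 of the hypoxia list and Slc16a3, Aldoc and Tpi1 of the glycolysis list are given first. Car9, a carbonic anhydrase of the cell surface that is induced by hypoxia, was at 7.34 and 7.66 with 5'ss AMO and PDGF-AA and 7.53 and 7.68 with 5'ss AMO alone, against 8.14 and 8.19 with control AMO and PDGF-AA and 7.14 and 7.43 with control AMO alone. The arrays with control AMO and PDGF-AA were the highest of the 8 and those with control AMO alone were below both with 5'ss AMO alone. The PDGF-AA change was -0.10 with 5'ss AMO and 0.88 with control AMO (adjusted p = 0.0755), and the interaction was -0.98 (SE 0.17, unadjusted p = 0.000242, adjusted p = 0.467). The difference between AMOs was -0.67 with PDGF-AA (adjusted p = 0.0926) and 0.31 without it (adjusted p = 0.98).

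Slc16a3, which encodes the lactate exporter MCT4, was at 9.83 and 9.78 with 5'ss AMO and PDGF-AA and 9.76 and 9.80 with 5'ss AMO alone, against 10.12 and 10.09 with control AMO and PDGF-AA and 9.50 and 9.47 with control AMO alone. The 4 arrays with 5'ss AMO lay together between the 2 control AMO groups and overlapped neither. The interaction was -0.60 (SE 0.125, adjusted p = 0.467), with a difference between AMOs of -0.30 with PDGF-AA and 0.30 without it, about equal in size and opposite in sign.

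Aldoc, a brain-type isoform of the glycolytic enzyme aldolase, was at 7.80 and 7.80 with 5'ss AMO and PDGF-AA and 7.86 and 8.03 with 5'ss AMO alone, against 8.10 and 8.28 with control AMO and PDGF-AA and 7.58 and 7.36 with control AMO alone. As for Slc16a3, the 5'ss AMO arrays lay between the control AMO groups. The interaction was -0.86 (SE 0.174, adjusted p = 0.467), and the difference between AMOs was -0.39 with PDGF-AA and 0.48 without it.

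Tpi1, the triose phosphate isomerase of glycolysis, was at 11.13 and 11.06 with 5'ss AMO and PDGF-AA and 11.13 and 11.17 with 5'ss AMO alone, against 11.41 and 11.48 with control AMO and PDGF-AA and 10.96 and 11.07 with control AMO alone. The highest 2 arrays were those with control AMO and PDGF-AA. The interaction was -0.48 (SE 0.12, adjusted p = 0.467), with a difference between AMOs of -0.35 with PDGF-AA and 0.13 without it.

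Other members of the 15 have other known roles. Masp1, a protease of the lectin pathway of complement, differed in pattern: it was at 8.21 and 8.33 with 5'ss AMO and PDGF-AA and 9.02 and 8.80 with 5'ss AMO alone, against 9.07 and 8.48 with control AMO and PDGF-AA and 8.66 and 8.41 with control AMO alone. Its lowest arrays were those with 5'ss AMO and PDGF-AA, and its PDGF-AA change was -0.63 with 5'ss AMO and 0.24 with control AMO, for an interaction of -0.87 (SE 0.204).

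Lsp1, a protein that binds actin filaments, was at 9.00 and 9.01 with 5'ss AMO and PDGF-AA and 9.20 and 9.23 with 5'ss AMO alone, against 9.51 and 9.48 with control AMO and PDGF-AA and 9.26 and 9.23 with control AMO alone. The replicates of each group lay close together, and the arrays with 5'ss AMO and PDGF-AA were the lowest and those with control AMO and PDGF-AA the highest. Its interaction was -0.47 (SE 0.105) and its difference between AMOs with PDGF-AA was -0.50 (adjusted p = 0.0579).

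The remaining members were Cmah, an enzyme of sialic acid metabolism (-0.78), the retrotransposon-derived Rtl3 (-0.83), the class II antigen-presenting chain H2-Ab1 (-0.67), the secreted phospholipase Pla2g2e (-0.59), the aminopeptidase Xpnpep2 (-0.57), the phosphatase Phospho1 of bone mineralization (-0.55), Ppp1r3b, which targets a phosphatase to glycogen (-0.54), Prodh2 of hydroxyproline breakdown (-0.47) and the kinase Tssk4 (-0.44). Of the 15, 8 lay mostly with PDGF-AA and 7 in both. The 5'ss AMO arrays were all below the control AMO arrays with PDGF-AA for 13 of 15, where 17.7% of all clusters were. Without PDGF-AA the groups did not overlap for 10 of 15, with Lsp1 below (11.1% of all clusters) and the others above (12.6%). The median difference between AMOs was -0.387 with PDGF-AA and 0.244 without it, and 0 of the 15 passed at either dose (the smallest adjusted p was 0.0579 with PDGF-AA). As for the genes above 0, the interaction that chose these genes uses the same arrays, so these counts are a description only.

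**Figure D3:**
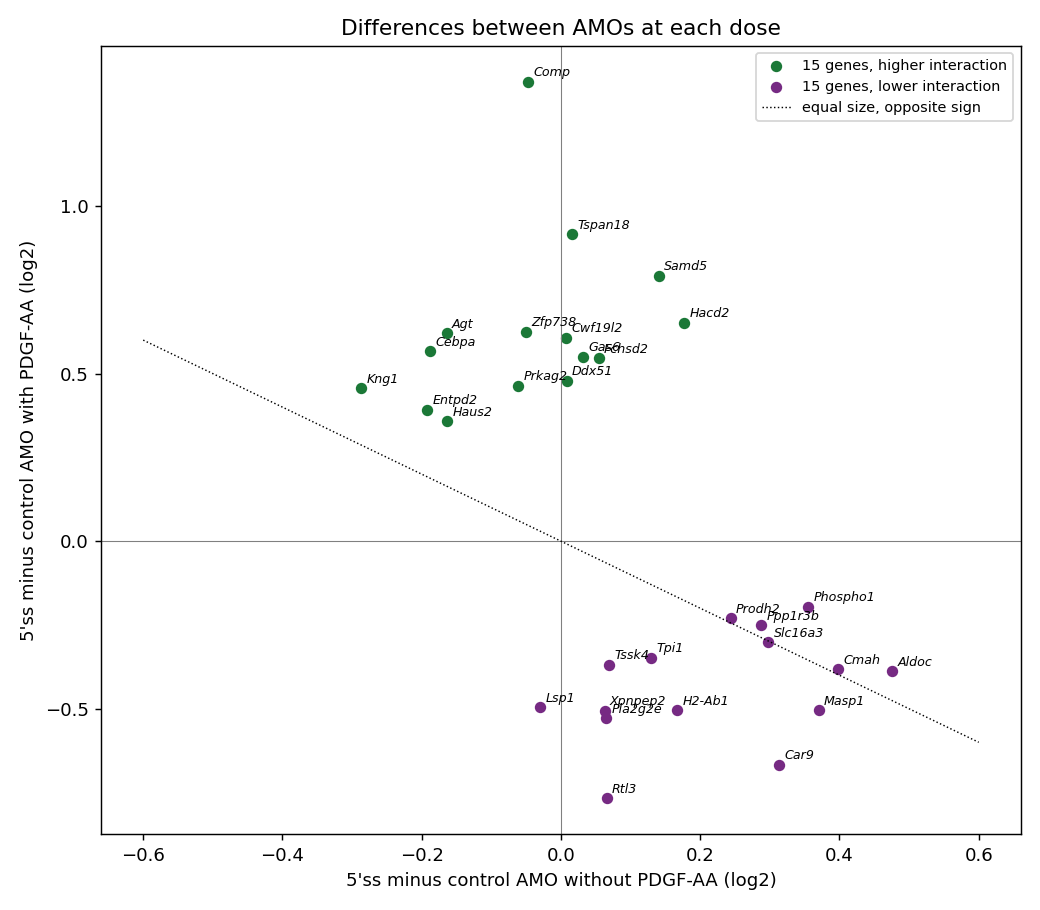
Difference between 5'ss AMO and control AMO (log2) without PDGF-AA on the horizontal axis and with PDGF-AA on the vertical axis for the 15 genes with an interaction above 0 and the 15 below 0, each from 2 arrays against 2. The 15 above 0 have a median of 0.567 with and -0.0474 without PDGF-AA, and the 15 below 0 a median of -0.387 with and 0.244 without PDGF-AA, several of them near the dotted line of equal size and opposite sign.

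Promoters of 3 of these genes are shown because they are known targets of the low-oxygen response among the genes below 0. Each is RefSeq sequence of the assembly GRCm38.p6, 250 bases before to 50 bases after the gene's start, 5′ to 3′ on the strand of the gene, which is the plus strand for all 3. Car9 spans chr4:43506776-43507075, Aldoc chr11:78322823-78323122 (the first of its 2 windows) and Slc16a3 chr11:120948817-120949116. Capitals mark ACGTG, a form of the core (A/G)CGTG of the hypoxia response element, or its reverse complement CACGT on the other strand. The form GCGTG was neither marked nor counted.
Car9: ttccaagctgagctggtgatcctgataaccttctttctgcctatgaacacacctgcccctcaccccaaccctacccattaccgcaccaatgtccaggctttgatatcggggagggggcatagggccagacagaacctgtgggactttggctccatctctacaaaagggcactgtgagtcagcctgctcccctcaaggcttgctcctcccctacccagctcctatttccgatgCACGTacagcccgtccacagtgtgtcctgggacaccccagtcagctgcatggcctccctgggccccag
Aldoc: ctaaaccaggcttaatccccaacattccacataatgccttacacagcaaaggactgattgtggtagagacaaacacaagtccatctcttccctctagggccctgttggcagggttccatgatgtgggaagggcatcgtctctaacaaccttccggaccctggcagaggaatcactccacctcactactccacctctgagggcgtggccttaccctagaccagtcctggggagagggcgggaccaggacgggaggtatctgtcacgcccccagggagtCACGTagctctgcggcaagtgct
Slc16a3: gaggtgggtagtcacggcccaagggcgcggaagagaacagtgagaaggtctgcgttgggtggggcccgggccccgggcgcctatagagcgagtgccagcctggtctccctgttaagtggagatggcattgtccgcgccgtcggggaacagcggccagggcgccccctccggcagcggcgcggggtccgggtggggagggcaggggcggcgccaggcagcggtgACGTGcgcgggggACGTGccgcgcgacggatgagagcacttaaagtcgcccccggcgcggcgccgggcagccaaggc
Car9 holds 1 match, which begins at base 233 of the window, Aldoc 1, at base 278, and Slc16a3 2, at bases 224 and 237. Of the 15 genes with an interaction below 0, 11 have a window and 6 of these (54.5%) hold the letters, against 2 of 12 (16.7%) for the 15 above 0 and 24.4% of the genes tested that have one. Both sets of 15 were chosen by the interaction, and the 3 known targets shown are among the 6, so these shares are a description only. Whether the letters have a part in the interaction was not tested. A match can overlap other motifs that share these letters, such as the E box CACGTG, and is not a measured binding site.

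Gene lists were then described by how many members had an interaction of either sign, beside the same over all clusters, with no test of a list. None of the 394 list genes measured passed for the interaction. The lists and their members were chosen with earlier results of these data known, and the members share the same arrays. The counts and medians of the lists are therefore a description only.

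Glycolysis and glucose uptake, 18 genes, had a median interaction of -0.324, against -0.0166 over all clusters. It was -0.244 in replicate 1 and -0.417 in replicate 2. Of the 18, 11 were below 0 at an unadjusted p under 0.05 (4.81% of all clusters) and 0 above (3.13%). In both replicates, 15 were below 0 (28% of all clusters) and 1 was above 0 (21.2%). The interaction was above 0 for 3 of the 18, and the members named here are all below 0. The median PDGF-AA change was 0.0239 with 5'ss AMO and 0.348 with control AMO. The median difference between AMOs was -0.154 with PDGF-AA and 0.172 without it. Members with an unadjusted p under 0.05 for that difference were 6 lower with 5'ss AMO given PDGF-AA (8.62% of all clusters) and 0 higher (6.95%). Without PDGF-AA, 7 were higher with 5'ss AMO (2.42%) and 0 lower (2.46%).

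Pgk1, phosphoglycerate kinase, a member chosen after its values were seen, was at 12.16 and 12.20 with 5'ss AMO and PDGF-AA and 12.12 and 12.13 with 5'ss AMO alone, against 12.39 and 12.31 with control AMO and PDGF-AA and 11.94 and 11.84 with control AMO alone. The 5'ss AMO arrays lay between the 2 control AMO groups, and the interaction was -0.41 (SE 0.115). The glucose transporter Slc2a1 had an interaction of -0.43 (SE 0.117) and Pdk1, which holds pyruvate back from the mitochondrion, one of -0.44 (SE 0.134). Hk2, a hexokinase, had one of -0.47 (SE 0.181) that lay mostly without PDGF-AA, where the difference between AMOs was 0.46, against -0.02 with it.

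The hypoxia response outside glycolysis, 26 genes, had a median interaction of -0.283, with -0.266 in replicate 1 and -0.296 in replicate 2. Of the 26, 10 were below 0 at an unadjusted p under 0.05 (4.81% of all clusters) and 1 above (3.13%), and 22 were below 0 in both replicates (28%). The median difference between AMOs was -0.137 with PDGF-AA and 0.186 without it. With PDGF-AA, 4 members were lower with 5'ss AMO at an unadjusted p under 0.05 (8.62% of all clusters) and 2 higher (6.95%), and without it 11 were higher (2.42%) and 0 lower (2.46%). Egln3, a prolyl hydroxylase that senses oxygen, was at 7.92 and 8.16 with 5'ss AMO and PDGF-AA and 7.65 and 8.02 with 5'ss AMO alone, against 8.27 and 8.32 with control AMO and PDGF-AA and 7.52 and 7.37 with control AMO alone. Its 5'ss AMO arrays lay between the control AMO groups, and its interaction was -0.64 (SE 0.176).

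Others on the list were Ankrd37 (-0.65), the oxidoreductase Ero1a of the endoplasmic reticulum (-0.42) and the mitophagy receptor Bnip3 (-0.47). Bnip3 lay mostly without PDGF-AA, with a difference between AMOs of 0.34 there and -0.13 with it. Epas1, the hypoxia-inducible factor HIF-2α, went the other way, with an interaction of 0.49 (SE 0.123) that lay with PDGF-AA. Its levels were 9.06 and 9.21 with 5'ss AMO and PDGF-AA and 8.65 and 8.82 with 5'ss AMO alone, against 8.44 and 8.84 with control AMO and PDGF-AA and 8.64 and 8.83 with control AMO alone. The angiogenic factor Vegfa was at -0.06 (SE 0.102).

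Both lists kept their sign without any 1 of the 8 arrays, between -0.358 and -0.262 for glycolysis and between -0.345 and -0.219 for hypoxia. Of the genes with a promoter window, 12 of 17 (70.6%) of the glycolysis list and 14 of 19 (73.7%) of the hypoxia list hold ACGTG or CACGT. These lists hold known targets of the hypoxia-inducible factors and were chosen with earlier results of these data known. These shares therefore describe the choice of genes, and the kept sign of the medians is a description only.

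**Figure D4:**
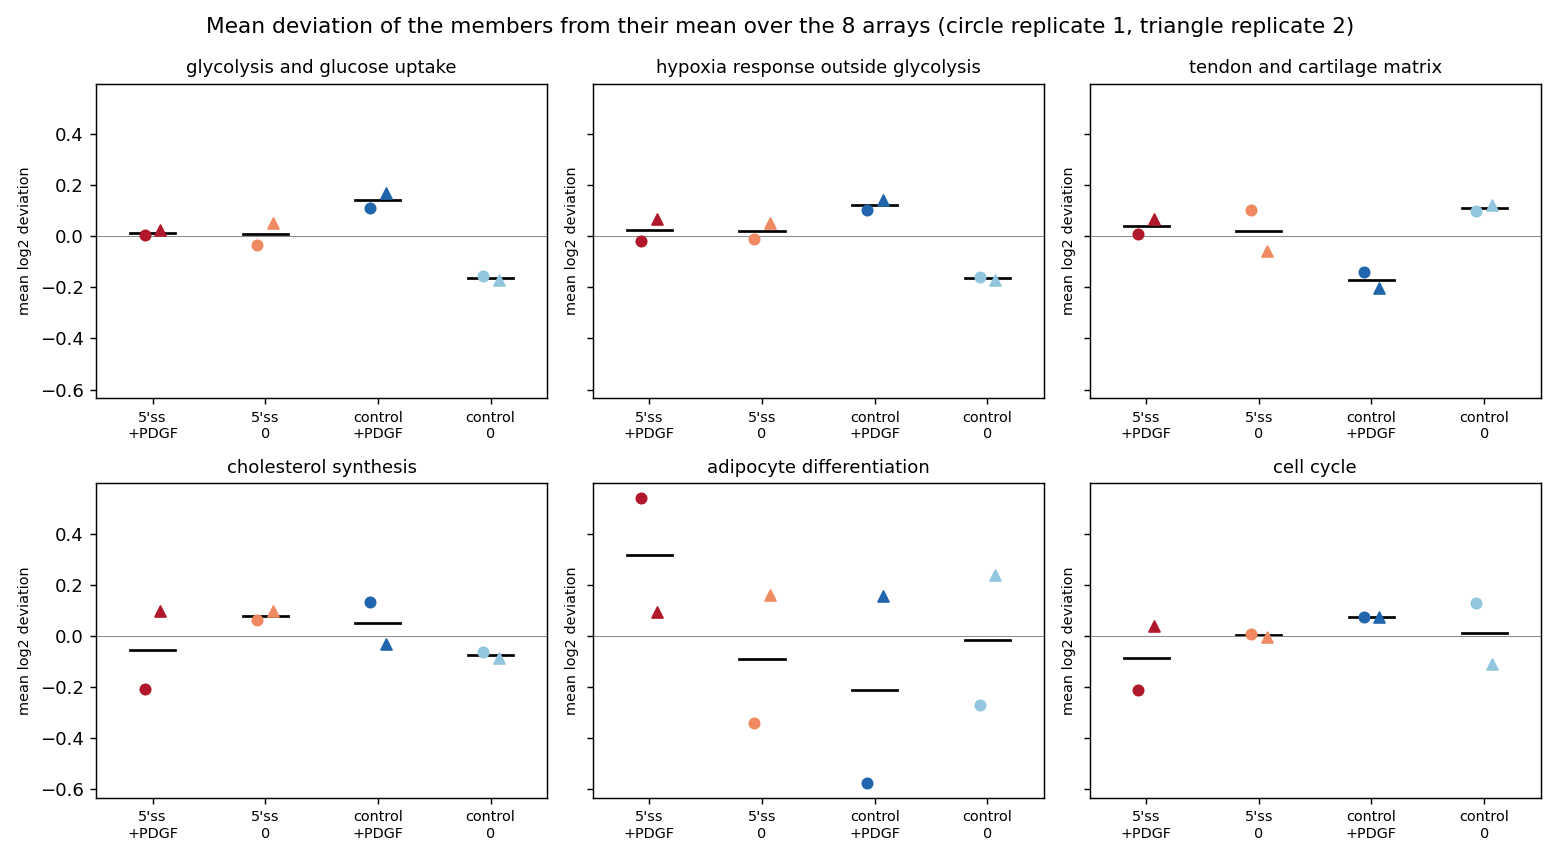
Mean log2 deviation (vertical axis) of the members of 6 gene lists from each member's mean over the 8 arrays, by array, with 5'ss AMO left of control AMO and a bar at each group's mean of 2 arrays. For glycolysis the arrays with 5'ss AMO and PDGF-AA are at 0.00321 and 0.0259 and those with 5'ss AMO alone at -0.0345 and 0.0533, between 0.112 and 0.169 with control AMO and PDGF-AA and -0.156 and -0.172 with control AMO alone, whereas the adipocyte list is at 0.541 on the replicate 1 array with 5'ss AMO and PDGF-AA and between -0.577 and 0.237 on the other 7.

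Tendon and cartilage matrix genes leaned the other way. The 16 genes had a median interaction of 0.165, with 0.162 in replicate 1 and 0.362 in replicate 2, and 4 were above 0 at an unadjusted p under 0.05 (3.13% of all clusters) and 0 below (4.81%). Both replicates were above 0 for 10 of 16 (21.2% of all clusters). Without single arrays the median moved by over 1.5 times, to 0.277 without 5'ss AMO alone replicate 1 and 0.255 without control AMO alone replicate 1. Fmod, a small collagen-binding proteoglycan, was at 7.97 and 8.42 with 5'ss AMO and PDGF-AA and 8.25 and 8.21 with 5'ss AMO alone, against 7.42 and 7.62 with control AMO and PDGF-AA and 8.23 and 8.23 with control AMO alone. Only the arrays with control AMO and PDGF-AA were low.

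The interaction of Fmod was 0.68 (SE 0.16), with a difference between AMOs of 0.68 with PDGF-AA (adjusted p = 0.0817) and 0.00 without it. Tnmd, a membrane glycoprotein of tendon, had an interaction of 0.39 (SE 0.11). The corneal proteoglycan Kera had one of 0.77 (SE 0.311) that lay mostly without PDGF-AA. The tendon transcription factors Scx and Mkx were at 0.05 (SE 0.112) and 0.02 (SE 0.226), and 4 of the 16 genes averaged below a log2 level of 6.1, the 40th percentile of all clusters tested. The list of 11 small leucine-rich proteoglycans, which shares Fmod and Kera, had a median of 0.0835 with opposite signs in the replicates (-0.0932 and 0.166), and of -0.00198 with replicate 2 of 5'ss AMO plus PDGF-AA left out. Of its members, 3 were above 0 at an unadjusted p under 0.05 (3.13% of all clusters) and 0 below (4.81%). Lumican (Lum), which spaces collagen fibrils, was at 0.30 (SE 0.117), and osteoglycin (Ogn) at -0.25 (SE 0.127).

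The IGF axis and growth factors, 21 genes, had a median interaction of 0.104, with 0.153 in replicate 1 and 0.14 in replicate 2, and 5 above 0 at an unadjusted p under 0.05 (3.13% of all clusters) and 0 below (4.81%). Leaving out single arrays moved the median between 0.0365, without 5'ss AMO alone replicate 1, and 0.179, with replicate 1 of control AMO plus PDGF-AA left out. The placental growth factor Pgf was at 6.80 and 6.97 with 5'ss AMO and PDGF-AA and 6.70 and 7.19 with 5'ss AMO alone, against 6.27 and 6.42 with control AMO and PDGF-AA and 6.83 and 7.02 with control AMO alone. Its arrays with control AMO and PDGF-AA were the lowest, and its interaction was 0.53 (SE 0.152).

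The Tie2 ligand Angpt1 (0.48, SE 0.17) and the IGF carrier Igfbp3 (0.72, SE 0.27) also lay mostly with PDGF-AA, where the AMOs differed by 0.48 for Angpt1 and 0.63 for Igfbp3. Igf1, the growth factor itself, lay higher with 5'ss AMO at both doses, at 9.50 and 9.80 with 5'ss AMO and PDGF-AA and 10.23 and 10.19 with 5'ss AMO alone, against 9.01 and 8.81 with control AMO and PDGF-AA and 9.96 and 9.66 with control AMO alone. The PDGF-AA arrays were the lower ones with either AMO, by 0.56 with 5'ss AMO and 0.90 with control AMO, neither of which passed. The AMOs differed by 0.74 with PDGF-AA and 0.40 without it, and the interaction was 0.34 (SE 0.175, adjusted p = 0.661).

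Complement genes, 12 in all, had a median interaction of 0.282 (0.336 in replicate 1 and 0.109 in replicate 2, and 0.186 with replicate 1 of 5'ss AMO plus PDGF-AA left out), with 5 above 0 (3.13% of all clusters) and 2 below (4.81%) at an unadjusted p under 0.05. The terminal component C7 was at 9.84 and 10.47 with 5'ss AMO and PDGF-AA and 10.33 and 10.51 with 5'ss AMO alone, against 9.48 and 9.78 with control AMO and PDGF-AA and 10.38 and 10.55 with control AMO alone. Its arrays with control AMO and PDGF-AA were lowest, and its interaction was 0.57 (SE 0.189). The classical-pathway protease C2 had an interaction of 0.51 (SE 0.119), and Masp1 and properdin (Cfp, -0.42, SE 0.146) were the 2 members below 0 at that threshold.

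Targets of TGF-beta and BMP, 19 genes with Tgfbi among them, had a median of 0.0892, with 5 above 0 (3.13% of all clusters) and 1 below, near the 4.81% of all clusters, at an unadjusted p under 0.05. Id2, an inhibitor of basic helix-loop-helix factors and a BMP target, was at 9.38 and 9.58 with 5'ss AMO and PDGF-AA and 9.28 and 9.57 with 5'ss AMO alone, against 8.90 and 9.14 with control AMO and PDGF-AA and 9.40 and 9.37 with control AMO alone. Its 2 arrays with control AMO and PDGF-AA were the lowest, and its interaction was 0.42 (SE 0.132). The ligand Tgfb2 was at 0.50 (SE 0.185), the ligand Bmp2 at 0.35 (SE 0.124) and the BMP antagonist Grem1 at -0.49 (SE 0.183), the last 2 at levels under 6.1. The list's median was 0.258 with replicate 1 of 5'ss AMO plus PDGF-AA left out and 0.0336 with its replicate 2 left out.

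Early-response, matrix and contractile genes had medians near that of all clusters. Immediate early and MAPK feedback genes, 27 in number, had a median interaction of -0.0372, with 0 above 0 (3.13% of all clusters) and 1 below (4.81%) at an unadjusted p under 0.05. That 1 was Ier3, at -0.38 (SE 0.126), which lay mostly without PDGF-AA. The feedback inhibitors of receptor and MAPK signalling Spry2 and Dusp1 were at -0.24 (SE 0.123) and -0.29 (SE 0.148), and the early gene Phlda1 at 0.29 (SE 0.131). RNA was taken 48 hours after PDGF-AA was added. Fibrillar collagens and other matrix genes, 33 in number, had a median of -0.0727. At an unadjusted p under 0.05, 1 was above 0 (Mgp, a calcification inhibitor, 0.37), near the 3.13% of all clusters. The 3 below 0 at that threshold (4.81% of all clusters) were the matricellular Sparcl1 (-0.35), the basement membrane protein Nid1 (-0.26) and the short-chain collagen Col8a1 (-0.40). Collagen type I, by Col1a1, was at -0.20 (SE 0.228). Myofibroblast and contractile genes, 18 in number, had a median of -0.0197. At an unadjusted p under 0.05, 0 members were above 0 (3.13% of all clusters) and 0 below (4.81%). The collagen-binding integrin chain Itga11 was at 0.18 (SE 0.12) and Acta2, the smooth muscle actin of myofibroblasts, at 0.16 (SE 0.583). With replicate 1 of 5'ss AMO plus PDGF-AA left out, the medians of these 3 lists were 0.0254, 0.0154 and 0.157, of the opposite sign.

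The adipocyte, cholesterol, cell cycle and interferon lists also depended on replicate or on single arrays. The 27 adipocyte genes had a median interaction of 0.425, which was 0.534 in replicate 1 and -0.00959 in replicate 2, with 6 above 0 (3.13% of all clusters) and 0 below (4.81%) at an unadjusted p under 0.05, and 0.0467 with replicate 1 of 5'ss AMO plus PDGF-AA left out and 0.22 with replicate 1 of control AMO plus PDGF-AA left out. Adipoq, the fat-cell hormone adiponectin, was at 9.31 and 7.41 with 5'ss AMO and PDGF-AA and 6.02 and 7.75 with 5'ss AMO alone, against 5.53 and 8.02 with control AMO and PDGF-AA and 6.32 and 7.85 with control AMO alone. Its replicate 1 array with 5'ss AMO and PDGF-AA was the highest of the 8 and the other replicate 1 arrays the lowest, while the replicate 2 arrays lay close together. In bulk RNA of this kind, more or fewer cells of a type and more or less RNA per cell cannot be told apart.

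By the levels below, Fabp5 had an interaction above 0 in both replicates, the larger in replicate 1. Fabp5, a fatty acid binding protein, was at 8.37 and 8.29 with 5'ss AMO and PDGF-AA and 7.13 and 8.09 with 5'ss AMO alone, against 6.52 and 7.44 with control AMO and PDGF-AA and 7.09 and 8.09 with control AMO alone, so that both arrays with 5'ss AMO and PDGF-AA were above both with control AMO and PDGF-AA. Its interaction was 1.32 (SE 0.311, adjusted p = 0.467). Pparg, the nuclear receptor that drives fat cell formation, had an interaction of 0.90 (SE 0.283), and the amine oxidase Aoc3 one of 0.43 (SE 0.128).

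Cholesterol synthesis, 20 genes, had a median of -0.265, which was -0.504 in replicate 1 and -0.0164 in replicate 2, with 0 above 0 (3.13% of all clusters) and 2 below (4.81%) at an unadjusted p under 0.05, the late-pathway enzymes Lss (-0.52) and Tm7sf2 (-0.50). The cholesterol enzyme Hsd17b7 and the sterol sensor Insig1 were both at -0.39 (SE 0.178 and 0.191). The median was -0.0427 with replicate 1 of 5'ss AMO plus PDGF-AA left out and -0.51 with its replicate 2 left out. The 41 cell cycle genes had a median of -0.145, with 0 above 0 (3.13% of all clusters) and 4 below (4.81%) at an unadjusted p under 0.05, the mitotic kinesin Kif20a (-0.53), the ubiquitin-conjugating enzyme Ube2c (-0.55), the transcription factor E2f1 (-0.27) and the centromeric histone Cenpa (-0.37). The cell cycle genes lay with PDGF-AA, with a median difference between AMOs of -0.179 there and -0.00862 without it. The median interaction of the cell cycle list was 0.0249 with replicate 1 of 5'ss AMO plus PDGF-AA left out, 0.0246 without control AMO alone replicate 2 and -0.35 with replicate 2 of 5'ss AMO plus PDGF-AA left out. The 23 interferon response genes had a median of 0.106, which was -0.252 in replicate 1 and 0.463 in replicate 2. At an unadjusted p under 0.05, 0 members were above 0 (3.13% of all clusters) and 0 below (4.81%). The median difference between AMOs was -0.329 with PDGF-AA and -0.454 without it, and of the 23 members 6 were lower with 5'ss AMO at an unadjusted p under 0.05 with PDGF-AA (8.62% of all clusters) and 5 without it (2.46%). The replicates did not share that direction with PDGF-AA, where the mean level of the list was 8.63 and 9.21 with 5'ss AMO against 9.45 and 9.05 with control AMO, while without PDGF-AA it was 8.67 and 8.95 with 5'ss AMO against 9.27 and 9.36 with control AMO. The GTPase Mx2 was at 6.44 and 7.22 with 5'ss AMO and PDGF-AA and 6.02 and 6.74 with 5'ss AMO alone, against 6.93 and 6.72 with control AMO and PDGF-AA and 6.97 and 7.32 with control AMO alone. Its 2 AMOs overlapped with PDGF-AA and not without it. The median interaction of the list was -0.232 with replicate 2 of 5'ss AMO plus PDGF-AA left out and 0.421 with its replicate 1 left out.

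**Figure D5:**
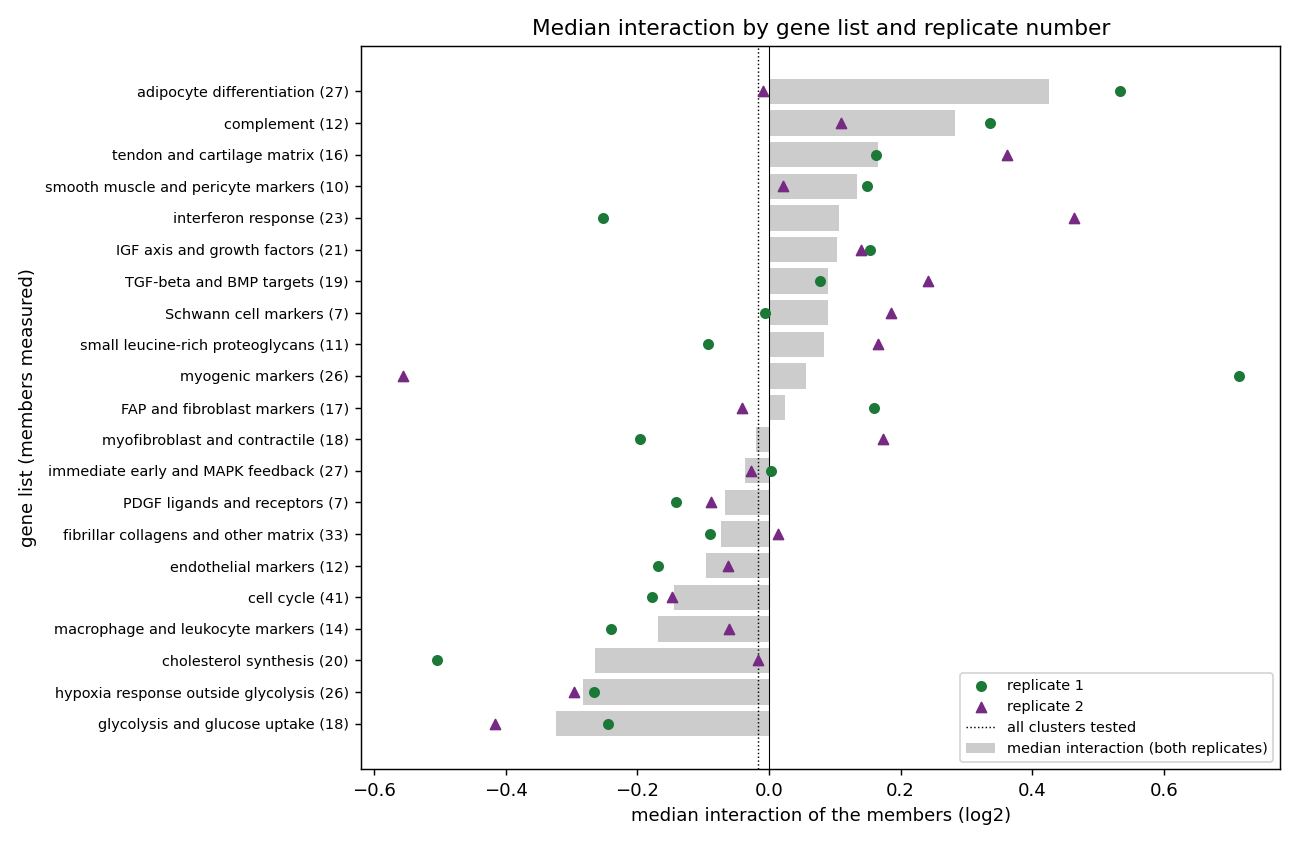
Median interaction (horizontal axis, log2) of the members of 21 gene lists, as a bar for both replicates and as points for replicate 1 and replicate 2, with the number of members measured in parentheses and a dotted line at the median of all clusters tested (-0.0166). Glycolysis is at -0.324 and hypoxia at -0.283 with both replicates below 0, while the myogenic markers are at 0.714 in replicate 1 and -0.556 in replicate 2.

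Markers were read to check the labelled cell type and the other cells a culture from muscle could hold. The 17 FAP and fibroblast markers averaged 10.6 to 10.9 on the 8 arrays, and 0 of them lay at or below the 40th percentile of all clusters (6.1). Of the macrophage and leukocyte markers, 10 of 14 did, of the endothelial markers 6 of 12, of the smooth muscle and pericyte markers 4 of 10, of the Schwann cell markers 3 of 7 and of the myogenic markers 4 of 26. Median interactions were 0.0248 for FAP markers, endothelial -0.095, macrophage -0.169, smooth muscle and pericyte 0.134 and Schwann cell 0.089. Those of the FAP, smooth muscle and Schwann cell markers came to -0.0216, 0.00649 and -0.0111 in the lowest fits that left out 1 array, and that of the macrophage markers was 0.0567, of the opposite sign, among clusters above the 40th percentile. Of the 14 macrophage and leukocyte markers, 1 was above 0 at an unadjusted p under 0.05 (3.13% of all clusters), the lysozyme gene Lyz2, at 1.07 (SE 0.267). The 3 below 0 at that threshold (4.81% of all clusters) were Mrc1 (-0.59), Itgam (-0.47) and Cd3e (-0.40).

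Col15a1, a basement membrane collagen among the FAP markers, was at 9.74 and 9.64 with 5'ss AMO and PDGF-AA and 8.85 and 9.54 with 5'ss AMO alone, against 7.99 and 9.26 with control AMO and PDGF-AA and 8.91 and 9.68 with control AMO alone. Its groups with PDGF-AA did not overlap, with replicate 1 the wider apart, and its interaction was 1.17 (SE 0.361, adjusted p over the threshold). Abcc9, a potassium channel subunit of pericytes, was at 9.10 and 9.09 with 5'ss AMO and PDGF-AA and 9.13 and 9.22 with 5'ss AMO alone, against 8.35 and 8.60 with control AMO and PDGF-AA and 9.05 and 9.11 with control AMO alone. Only its arrays with control AMO and PDGF-AA were low, and its interaction was 0.53 (SE 0.154).

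Myogenic markers were the list with the widest spread between replicates. Their mean level was 7.30 and 6.95 with 5'ss AMO and PDGF-AA and 6.81 and 7.14 with 5'ss AMO alone, against 7.15 and 7.03 with control AMO and PDGF-AA and 7.42 and 6.64 with control AMO alone. The median interaction was 0.0565, made of 0.714 in replicate 1 and -0.556 in replicate 2. Whether these cells had a part in the gene values above was not tested.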

How the data were processed

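The authors deposited log2 expression values. Per the submitters' processing notes they come from RMA and Affymetrix Expression Console, with no version named. RMA normalizes all arrays together, so probe summaries stand as deposited and depth is the number of arrays. Array medians lay between 6.04 and 6.23. Replicates are 2 arrays a group, each of cells pooled from 2 mice, and no label says what a replicate number shares. The number was used as a block because the comparison was posed with it. Arrays with the same number also deviated together from their groups' means, with correlations of 0.2 to 0.61 across clusters in 15 of 15 pairs of groups, over the criterion of 0.1. The pairing is thus one seen in the data.

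Of 35556 transcript clusters, 21789 have exactly 1 symbol in the platform annotation (19938 genes), 1621 have several and 12146 are not listed there. 21698 matched RefSeq gene identifiers and 0 symbols changed. A means model of the 6 groups plus the block was fitted to 12 arrays with limma 3.58.1 in R 4.3.3 (5 residual degrees of freedom, no trend). P-values, two-sided, were adjusted by Benjamini-Hochberg over 21789 clusters, threshold 0.05. The script was tested on simulated data.

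Named genes are the 15 in each direction with the smallest interaction p, one sign in both replicates and a mean above the 40th percentile (6.1), without predicted genes, small RNAs and olfactory receptors. The PDGF genes and, in each of 21 lists (394 of 420 genes measured, each by its brightest cluster), the 4 members with the smallest p and the one furthest against the median were added. Most of these are printed, with others chosen after their values were seen (Pgk1, Pdk1, Hk2, Ankrd37, Bnip3, Vegfa, Scx, Mkx, Igf1, Col1a1, Acta2, Adipoq). Members and lists were chosen with earlier results of these data known. Alternatives were no block, 8 arrays, all clusters, a filter on dim clusters, median centring, cyclic loess, repeated quantile normalization, trend, robust moderation, array weights and leaving out each array.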

Additional observations from a re-analysis of the deposited data

How the results depend on the processing

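With 2 arrays a group, precision is set by their number, and a p that misses the threshold does not show that values did not differ. The replicate number as a block decides the calls. With no replicate block, 0 clusters passed between 5'ss AMO and control AMO without PDGF-AA (1 with the block), 0 with PDGF-AA (22) and 0 averaged over doses (3). The calls with PDGF-AA, 22, became 0 with only the 8 arrays of the AMOs compared, 0 with all 35556 clusters, 106 above the 40th percentile, 62 with median centring, 272 with an intensity trend and 4 with array weights. The averaged calls, 3, became 1 with 8 arrays, 1 with all clusters, 42 above the 40th percentile, 12 with median centring, 5 with cyclic loess, 5 with repeated quantile normalization and 132 with an intensity trend. The call without PDGF-AA, 1, became 0 with all clusters. PDGF-AA with control AMO, 0, became 51 above the 40th percentile, 26 with median centring, 1 with repeated quantile normalization and 149 with an intensity trend, and the interaction, 0, became 1 with that trend. Leaving out each array gave 0 to 9 for the interaction, 0 to 18 for PDGF-AA with 5'ss AMO, 0 to 21 between AMOs with PDGF-AA, 0 to 1 without it and 1 to 10 averaged. The cause of these shifts was not tested. Without 1 array the interaction of Pdgfa ran from -0.053 to 0.152, with -0.0306 among its reversed values, and that of Pdgfrl from -0.267 to 0.383, with -0.0202. Of 21 list medians, 18 kept their sign in 10 other settings and 12 without any 1 of 8 arrays.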
